A study of Felis catus with 2 samples.

Results

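The transcripts described here are those of 3 latent transforming growth factor-beta binding proteins, LTBP2, LTBP3 and LTBP4, and of the 3 TGF-beta ligands, TGFB1, TGFB2 and TGFB3. The 6 genes were found by exact name among 21462 loci that carry a name, of 32065 loci in all. TGFB2 stands on 2 rows, of which the row with the higher mean was used. No row carries the name LTBP1, the fourth gene of the binding protein family, so LTBP1 was not analysed here. Polyadenylated RNA came from 2 cats aged 2 months. One had primary congenital glaucoma (PCG), in which pressure in the eye is raised from early life, and the other was an unrelated healthy cat. The piece taken from both was the tissue between iris and cornea, where aqueous humor leaves the eye, with the ciliary body and the adjoining sclera and trabecular meshwork. In the colony that the study describes, founded by affected Siamese cats, PCG is inherited as a recessive trait together with a short duplication in LTBP2. The labels give the disease state of each cat and no genotype, and neither labels nor methods give the breed or sex of the 2 animals sequenced.

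TGF-beta ligands are secreted as latent complexes, in which the mature dimer is held by its own propeptide. LTBP1, LTBP3 and LTBP4 are joined to that propeptide by disulfide bonds and place the complex on fibrillin microfibrils of the extracellular matrix, from which integrins, proteases or thrombospondin release the active ligand. LTBP2 is the exception in the family, since it binds fibrillin but not latent TGF-beta, and it is needed for stable microfibrils in the ciliary zonule that suspends the lens. TGFB2 is the main ligand of aqueous humor.

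LTBP2 is the gene that carries the duplication in this pedigree. The surroundings of the repeat, taken from the feline cDNA that accompanies the study, mark where the frames of the 2 forms part. Capitals mark the repeated bases, which begin at nt 1994 of the cDNA, counted from its first base, within the coding sequence that opens with an ATG at nt 546.
LTBP2 cDNA with both copies: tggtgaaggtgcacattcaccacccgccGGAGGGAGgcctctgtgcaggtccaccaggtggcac
LTBP2 cDNA with 1 copy: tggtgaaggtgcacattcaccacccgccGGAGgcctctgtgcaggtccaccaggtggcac
The frame from that ATG holds 600 codons before the first stop with both copies and 1823 codons with 1 copy. The deposited value of LTBP2 is 1 number per library for the whole locus, so it does not tell the 2 forms apart.

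Expression is given as FPKM, a fragment number divided by exon length and by library size, which corrects for transcript length and so allows genes to be compared with each other. Each condition has a single library, so replicate error is unknown and no test between the cats is possible. Every value describes these 2 libraries, and where a pair of values is given without further words, the normal cat comes first and the affected cat second. Low values fall on whole multiples of 1 fragment, which puts the scale at about 71200000 fragments in the normal cat and 67440000 in the affected cat. One FPKM was thus worth 71 fragments on each kilobase of transcript in the normal cat and 67 in the affected cat. The intervals in parentheses are exact 95% intervals for the fragments on 1 kilobase of transcript, and longer transcripts would narrow them. They cover counting error only, not the variation between cats. A value of 0 stands against 10 FPKM or more in the other library at 35 loci, and GAPDH, an enzyme of glycolysis that every cell uses, is listed at 0 in both, so a 0 is reported only as listed.

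Among the binding proteins, LTBP2 was higher in the affected cat while LTBP3 and LTBP4 differed little between the cats. LTBP2 stood at 16.7 FPKM in the normal cat (15.8 to 17.7) and at 54.8 FPKM in the affected cat (53.0 to 56.6). That is 3.28 times as much (3.07 to 3.51), and LTBP2 moved from rank 4793 to rank 1509 among all named loci. LTBP3, which carries latent TGF-beta and is known for its part in bone and tooth growth, was the most abundant binding protein in both libraries. Its level was 108.3 FPKM in the normal cat (105.9 to 110.7) and 137.8 FPKM in the affected cat (135.1 to 140.7), or 1.27 times as much (1.23 to 1.31). LTBP4, which carries latent TGFB1 and guides elastic fiber assembly, stood at 44.8 FPKM in the normal cat (43.2 to 46.4). Its affected value was 42.7 FPKM (41.2 to 44.3), which is 0.954 times the normal value (0.907 to 1.003), so the counting interval of LTBP4 includes no difference.

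**Figure D1:**
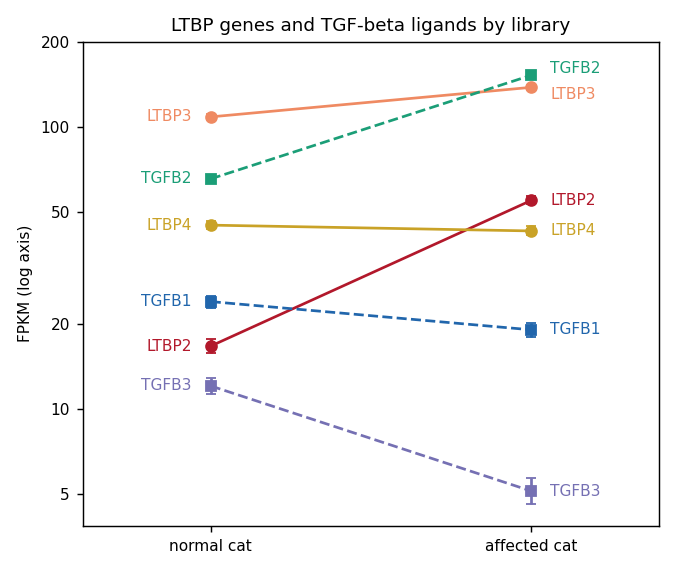
FPKM of the 6 genes in the normal cat and the affected cat, on a log axis, with circles and solid lines for the binding proteins and squares and dashed lines for the ligands. Bars are 95% counting intervals on 1 kilobase and do not include variation between cats; LTBP2 climbs from 16.7 to 54.8 FPKM and passes LTBP4 and TGFB1, while TGFB3 drops to 5.12 FPKM.

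The 3 ligands differed in direction. TGFB2 was the most abundant ligand in both libraries, at 65.3 FPKM in the normal (63.5 to 67.2) and 152.1 FPKM in the affected cat (149.2 to 155.1), a ratio of 2.33 (2.25 to 2.41). TGFB1, the ligand best known for its action on immune cells and in wound repair, stood at 24.0 FPKM in the normal cat (22.9 to 25.2). In the affected cat it stood at 19.1 FPKM (18.0 to 20.1), or 0.794 times as much (0.739 to 0.855). TGFB3, known for its part in palate closure, was the lowest of all 6 genes in both libraries, with 12.1 FPKM in the normal (11.3 to 12.9) and 5.12 FPKM in the affected cat (4.59 to 5.68). The normal value of TGFB3 was 2.36 times the affected value (2.08 to 2.68). The affected cat therefore had more TGFB2 message, less TGFB3 message and slightly less TGFB1 message than the normal cat.

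Differences were also set against all loci on the scale log2 of (affected + 1) over (normal + 1), over the 16676 loci that reached 1 FPKM in at least 1 library. The median log2 ratio of those loci was −0.0047, and the quartiles lay at −0.43 and 0.40. Differences of 2-fold are counted on this scale throughout, which understates those of low loci. The log2 ratio of a gene is always taken on it. Loci higher by 2-fold or more in the affected cat made up 8.14%, and loci lower by 2-fold or more made up 8.75%. With no pseudocount these shares were 12.5% and 13.6%. Of the 6 genes, LTBP2 with a log2 ratio of 1.66 and TGFB2 with 1.21 were higher by 2-fold or more, and TGFB3 with −1.09 was lower by 2-fold or more. LTBP3, LTBP4 and TGFB1 had log2 ratios of 0.35, −0.067 and −0.32, which lie between those quartiles. The background was also taken among loci of similar abundance. Among 1234 loci with a mean within 2-fold of that of TGFB2, 11.2% were higher by 2-fold or more in the affected cat, and the ratio of TGFB2 exceeded that of 91.7% of them. Among 3754 loci near the mean of LTBP2 the share higher by 2-fold or more was 7.67%. Among 6157 loci near the mean of TGFB3, 7.78% were lower by 2-fold or more, and 6.66% had a ratio below that of TGFB3.

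**Figure D2:**
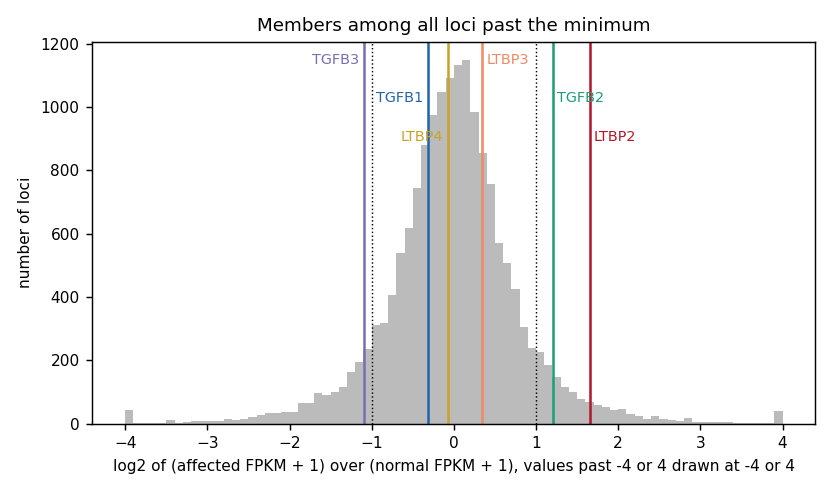
Number of loci by log2 ratio of affected over normal (1 FPKM added to each value) for the 16676 loci past 1 FPKM in either library, with the 6 genes as colored lines and 2-fold differences as dotted lines. LTBP2 and TGFB2 lie right of the upper 2-fold line, TGFB3 lies left of the lower one, and the other 3 genes lie in the bulk of the loci.

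The order of the 6 genes within a library does not depend on any scaling between libraries. In the normal library the order was LTBP3, TGFB2, LTBP4, TGFB1, LTBP2 and TGFB3, with neighbors 1.38-fold to 1.87-fold apart. In the affected library it was TGFB2, LTBP3, LTBP2, LTBP4, TGFB1 and TGFB3. TGFB2 and LTBP3 were closest there, with TGFB2 only 1.10 times as high, and TGFB1 exceeded TGFB3 3.73-fold. No neighbors had overlapping counting intervals in either library, but the spread between cats is not known. The highest of the 6 genes exceeded the lowest 8.98-fold in the normal cat and 29.7-fold in the affected cat. By percentile among loci past 1 FPKM, LTBP3 stood at 95.8 and 96.3 and LTBP4 at 88.5 and 87.3 in the normal and the affected cat. TGFB2 stood at 92.4 and 96.7 and TGFB1 at 77.8 and 71.9, whereas TGFB3 went from 60.1 in the normal to 38.4 in the affected cat. Percentiles depend on which loci are counted, and those of TGFB3 were 79.2 and 68.0 among all loci and 37.8 and 6.55 among loci that average 5 FPKM or more.

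LTBP2 was compared with each of its paralogs and ligands within a library. The ratio of LTBP2 to LTBP3 was 0.154 in the normal cat and 0.397 in the affected cat, so LTBP3 stayed ahead in both. The ratio of LTBP2 to LTBP4 was 0.373 in the normal cat and 1.28 in the affected cat, where LTBP2 was the higher of the pair. LTBP2 likewise went from below TGFB1, with a ratio of 0.696, to above it, with a ratio of 2.87. Against TGFB3 the ratio was 1.38 in the normal cat and 10.7 in the affected cat, the widest change among the pairs with LTBP2, at 7.74-fold. The ratio of LTBP2 to TGFB2 changed least among these pairs, from 0.256 to 0.360, or 1.41-fold, and both genes were higher in the affected cat.

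**Figure D3:**
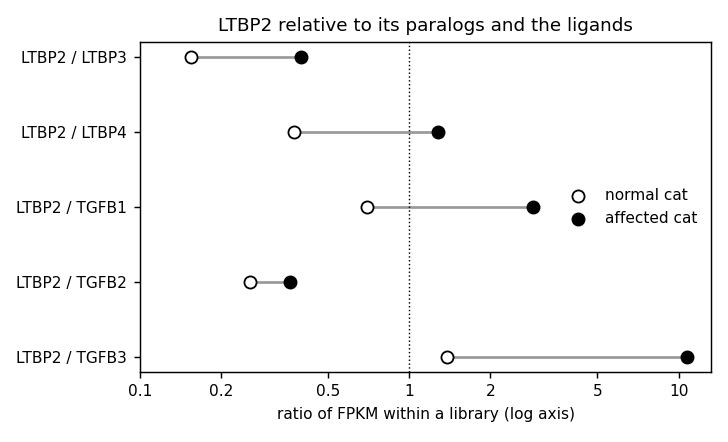
Ratio of LTBP2 to each of the other 5 genes within the normal (open circles) and the affected library (filled circles), as FPKM over FPKM on a log axis, with a dotted line at equal levels. LTBP2 crosses that line against LTBP4 and TGFB1, and its ratio to TGFB2 moves least, from 0.256 to 0.360.

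The make-up of both gene groups was also computed as shares of the summed FPKM. LTBP2 held 9.83% of the summed level of the 3 binding proteins in the normal cat and 23.3% in the affected cat. LTBP3 held 63.8% and 58.6%, and LTBP4 held 26.4% and 18.1%. Of the summed ligand message, TGFB2 held 64.4% in the normal cat and 86.3% in the affected cat, TGFB1 23.7% and 10.8%, and TGFB3 11.9% and 2.90%. TGFB2 was 5.42 times as high as TGFB3 in the normal cat and 29.7 times as high in the affected cat, and 2.72 and 7.98 times as high as TGFB1.

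**Figure D4:**
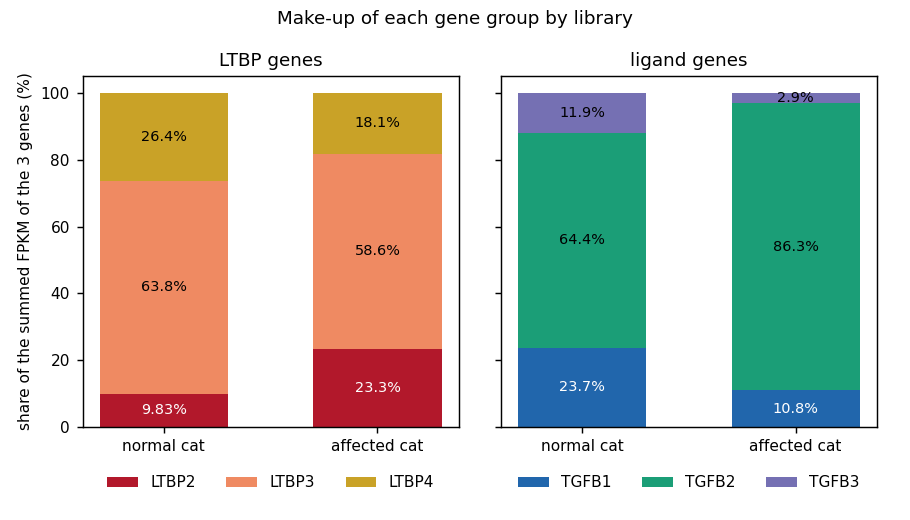
Share of each gene in the summed FPKM of the 3 binding proteins (left) and of the 3 ligands (right), in percent, for 1 library per bar. The LTBP2 share is 9.83% in the normal cat and 23.3% in the affected cat, and the TGFB2 share is 64.4% and 86.3%.

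The 3 binding proteins summed to 169.8 FPKM in the normal cat and 235.3 FPKM in the affected cat, and the 3 ligands to 101.4 and 176.3 FPKM. Without LTBP2, which does not bind the latent ligands, LTBP3 and LTBP4 summed to 153.1 and 180.5 FPKM. These 2 carriers had 1.51 times the ligand message in the normal cat and 1.02 times in the affected cat. That ratio does not match each carrier to the ligands it binds, since LTBP4 is known as a carrier of latent TGFB1. LTBP3 exceeded TGFB2 1.66-fold in the normal cat, whereas in the affected cat it was 0.906 times the level of TGFB2. For LTBP4 and TGFB2 the ratio was 0.686 in the normal cat and 0.281 in the affected cat. LTBP1 is not part of these sums, and messenger RNA levels do not give the amounts of secreted protein.

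Positions are given on felCat5, with starts counted from 1, as the spans of the Cufflinks loci. LTBP2 lies on chromosome B3 from 120939589 to 121049235 and TGFB3 on the same chromosome from 122251802 to 122274395, 1.20 Mb apart. LTBP4 lies on chromosome E2 from 13504507 to 13533699, and TGFB1 lies 0.473 Mb away, from 13019062 to 13031804. LTBP3 lies on chromosome D1 from 110086386 to 110114442 and TGFB2 on chromosome F1 from 55000106 to 55140705. Several spans are shared by more than 1 locus, so they mark a transcribed region rather than the ends of a single gene. ISCA2, which encodes an iron-sulfur cluster assembly protein, shares the span of LTBP2 and stood at 8.91 FPKM in the normal cat and 8.27 FPKM in the affected cat. ISCA2 thus lay within 2-fold. The span of TGFB2 holds RRP15, a ribosome biogenesis gene, at 5.76 and 4.97 FPKM, the second TGFB2 row at 0.689 and 1.18 FPKM, and an unnamed locus at 15.6 and 35.3 FPKM. The unnamed locus was 2.27 times as high in the affected cat, close to the 2.33 of TGFB2. The library kit does not mark strand, so reads of overlapping loci on opposite strands cannot be told apart here.

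Genes with the most similar pair of levels were found by Euclidean distance of log2(FPKM + 1) over the 2 libraries, among 11475 other symbols. Nearest to LTBP2 were TSC22D3 at 16.3 and 55.0 FPKM, SYP at 17.4 and 53.9 FPKM, DLL1 at 15.9 and 53.7 FPKM, CD320 at 16.3 and 52.2 FPKM, and PTX4 at 16.5 and 50.2 FPKM. TSC22D3 is a glucocorticoid-induced regulator, SYP a synaptic vesicle protein and DLL1 a Notch ligand. In all, 57 symbols lay within 0.5 of LTBP2 on this scale. TGFB2 had 43 such neighbors, of which NDRG2 and PLXNB2, a plexin receptor, were nearest. TGFB3 had 321, led by IGFBP3, an insulin-like growth factor binding protein, and PLD1, a phospholipase. LTBP3 had 146, led by GLRX5 and CCDC152, LTBP4 had 545, led by MRPS24 and GSTO1, and TGFB1 had 932, led by MTA1 and RNF4. Likeness over 2 libraries is a weak criterion.

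The matrix proteins and anchors around latent complexes went both ways. FBN1 and LTBP2 were past 2-fold on the higher side, and FBN2, FN1, EMILIN1 and LRRC32 on the lower side. FBN1, fibrillin-1, to which LTBP2 binds, stood at 55.8 FPKM in the normal cat and 242.1 FPKM in the affected cat, a ratio of 4.34. FBN1 exceeded LTBP2 3.34-fold in the normal cat and 4.42-fold in the affected cat. FBN2, the fibrillin of early development, went the other way, from 11.4 to 1.96 FPKM. FN1, the fibronectin to which latent complexes also attach, stood at 123.7 and 15.7 FPKM, and EMILIN1, an inhibitor of proTGF-beta processing, at 35.1 and 14.7 FPKM. LRRC32, which holds latent TGF-beta at the cell surface, stood at 6.29 and 0.766 FPKM. Together with the LTBP genes, 9 of the 10 names in this list were found and passed 1 FPKM, of which 2 were higher by 2-fold or more and 4 lower by 2-fold or more, with a median log2 ratio of −0.74. That median rests on low genes, since it was −0.067 over the 7 genes that average 5 FPKM or more, of which 3 were higher and 4 lower in the affected cat by any amount, and −1.25 with no pseudocount. NRROS, which holds latent TGF-beta on microglia and macrophages, had 2.05 and 0.830 FPKM and lay within 2-fold on that scale.

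Among genes that release or process the ligands, most lay within 2-fold. Of 13 such genes past 1 FPKM, none was higher by 2-fold or more and 2 were lower by 2-fold or more, and the median log2 ratio was −0.45. The lower genes were THBS1, thrombospondin-1, an activator of latent TGF-beta, at 9.0 and 1.58 FPKM, and BMP1, a protease that cleaves matrix precursors and LTBP1, at 38.6 and 11.0 FPKM. ITGAV, the alpha-v integrin subunit that binds the ligand propeptide, stood at 59.9 and 84.0 FPKM. Its beta partner ITGB5 had 90.2 and 131.6 FPKM, and ITGB1 190.1 and 120.9 FPKM. ITGB8 was low at 2.58 and 3.07 FPKM, and ITGB6 was below the minimum in both libraries, at 0.224 and 0.0049 FPKM. The matrix metalloproteases MMP2, at 325.4 and 388.3 FPKM, and MMP14, at 119.6 and 167.8 FPKM, and the proprotein convertase FURIN, at 22.5 and 27.9 FPKM, were within 2-fold.

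The receptors diverged. TGFBR3, betaglycan, the coreceptor that presents TGFB2 to the signaling receptors, stood at 16.6 FPKM in the normal cat and 63.5 FPKM in the affected cat, 3.82 times as much. TGFBR2, which binds the ligand, had 30.5 and 19.2 FPKM, and TGFBR1, the kinase that it activates, had 15.2 and 13.2 FPKM. The ratio of TGFBR3 to TGFBR2 was thus 0.546 in the normal cat and 3.31 in the affected cat. Relative to TGFB2 itself, TGFBR3 stood at 0.254 and 0.418. ENG and ACVRL1, a coreceptor and a receptor of endothelial cells, were lower, from 41.0 to 16.7 FPKM and from 18.4 to 5.50 FPKM. Markers of vascular endothelium were lower as well, with 6 of 10 lower by 2-fold or more, none 2-fold higher and a summed level of 178.3 FPKM in the normal cat and 72.1 FPKM in the affected cat. The part of these cells in the receptor values was not tested. In bulk tissue, fewer cells of a type and less RNA per cell cannot be told apart.

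Inside the cell no gene of the list passed 2-fold. All 11 signal transducers and feedback genes measured lay within 2-fold, with a median log2 ratio of −0.064. SMAD3, which carries the signal to the nucleus, had 13.5 and 23.9 FPKM, and its partner SMAD2 had 17.4 and 11.0 FPKM. The feedback inhibitor SMAD7 had 12.5 and 9.15 FPKM, and PMEPA1, an induced inhibitor and the highest of the list, had 29.9 and 43.7 FPKM. SMAD6, which mainly restrains the related BMP signal, had 17.9 and 21.8 FPKM. SMAD4 stands only on a row joined with a neighboring gene and was not matched.

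Among extracellular inhibitors of the ligands, 3 of 4 proteoglycans were lower by 2-fold or more in the affected cat. DCN, decorin, stood at 685.6 and 82.2 FPKM, BGN, biglycan, at 553.7 and 104.9 FPKM, and ASPN, asporin, at 8.84 and 3.51 FPKM. FMOD, fibromodulin, was the exception, with 351.9 and 416.0 FPKM.

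Genes known as TGF-beta targets were mixed. Of 17 past 1 FPKM, 8 were lower by 2-fold or more, 2 higher by 2-fold or more and 7 within 2-fold, and the median log2 ratio was −0.98. The matrix genes POSTN, periostin, TNC, tenascin-C, and TGFBI, named for its induction by TGF-beta, had 93.9 and 3.92 FPKM, 17.8 and 0.779 FPKM, and 46.8 and 6.34 FPKM. The fibrillar collagen genes COL1A1, at 2476 and 41.8 FPKM, and COL3A1, at 415.4 and 12.9 FPKM, were also lower. COL1A2, whose chain joins that of COL1A1, was listed at 0 in the normal cat and at 447.2 FPKM in the affected cat. That listing runs against COL1A1, and it supplies 1 of the 2 higher genes. Without COL1A2 the median was −1.15. The remaining lower genes were LOX, which crosslinks collagen, at 27.4 and 5.71 FPKM, TAGLN, a smooth muscle actin-binding protein, at 501.0 and 198.6 FPKM, and PDGFB, a growth factor, at 8.53 and 1.64 FPKM. CTGF, a matricellular protein, stood at 45.7 and 41.5 FPKM. SPARC, the most abundant target, had 4853 and 2467 FPKM.

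Over the 6 lists without the members themselves, 4 of 56 genes were higher by 2-fold or more (7.14%) and 19 were lower by 2-fold or more (33.9%), where all loci gave 8.14% and 8.75%. With no pseudocount 4 were higher (7.14%) and 21 lower (37.5%), against 12.5% and 13.6% of all loci. The lists were chosen with earlier results of these data known, so the shares describe only the genes listed. FBN1, TGFBR3 and COL1A2 were among the higher genes, COL1A2 only through its listing at 0 in the normal cat. LTBP2 and TGFB2 were higher in the affected cat while most of the listed genes that moved were lower.

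**Figure D5:**
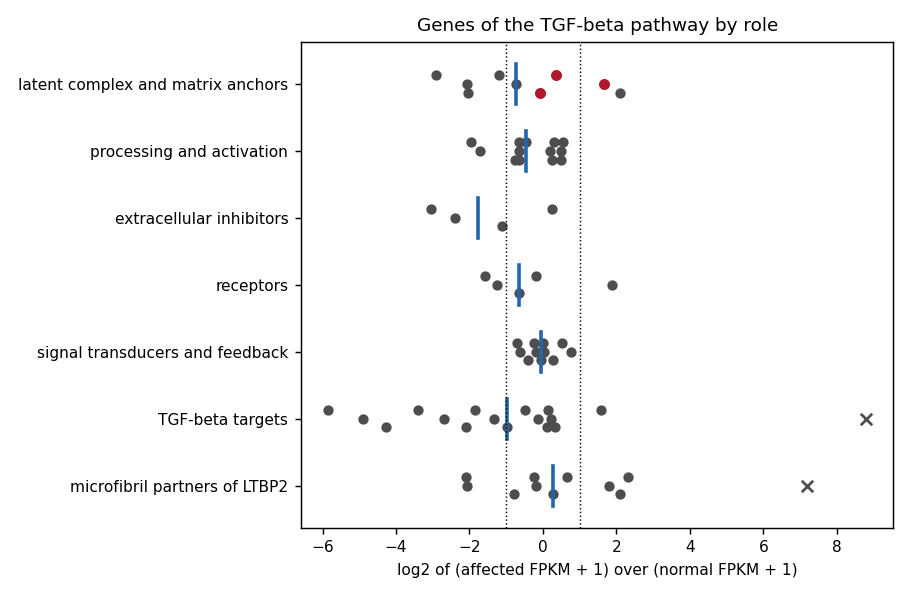
Log2 ratio of affected over normal (1 FPKM added) for each gene past 1 FPKM, 1 row per role in the pathway, with red points for LTBP2, LTBP3 and LTBP4, crosses for genes listed at 0 in 1 library, blue bars for medians and dotted lines at 2-fold. Signal transducers stay within 2-fold, receptors spread from −1.58 to 1.87, and targets and inhibitors reach furthest to the lower side.

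The microfibril partners of LTBP2 were spread to both sides. Of 11 genes past 1 FPKM, 4 were higher by 2-fold or more and 2 lower by 2-fold or more, with a median log2 ratio of 0.28. EFEMP1, a fibulin, had 122.2 and 611.5 FPKM and MFAP4, a microfibril-associated protein, 70.6 and 246.1 FPKM. MFAP2 was listed at 0 in the normal cat and at 145.5 FPKM in the affected cat. Without it the median was 0.042. LOXL1, an elastin crosslinker, had 179.0 and 217.8 FPKM, and FBLN5, an elastic fiber protein, 60.6 and 35.0 FPKM.

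Markers of other cell types moved between the libraries together with these genes. Of 8 matched markers of trabecular meshwork, which the dissection held, 7 reached 1 FPKM in the normal cat and 8 in the affected cat, and of 10 matched markers of ciliary epithelium 9 and 10 did. CHI3L1, at 0.854 and 32.0 FPKM, and AQP4, at 0.186 and 1.36 FPKM, were the markers under 1 FPKM in the normal cat. Ciliary epithelium markers were higher by 2-fold or more in 5 of 10 cases and lower in 2, with summed levels of 2774 FPKM in the normal cat and 6275 FPKM in the affected cat. Trabecular meshwork markers summed to 1524 and 901 FPKM, with 4 of 8 higher and 2 lower, but their median log2 ratio was 0.58. That lower sum rests on the 2 lower markers, DCN, at 685.6 and 82.2 FPKM, and MGP, at 454.9 and 52.9 FPKM. Photoreceptor markers, which do not belong to the named tissue, were higher by 2-fold or more in 8 of 10 cases and summed to 413 and 1693 FPKM. Lens markers were higher in 8 of 14 cases and lower in 2, and summed to 58012 and 49520 FPKM. CRYAA, an alpha-crystallin, made up 22978 FPKM of the normal sum and was listed at 0 in the affected cat. Without CRYAA the lens sums were 35034 and 49520 FPKM, so the direction of the sum turned. Corneal and conjunctival epithelium markers were lower in 11 of 12 cases and higher in 1, and summed to 645.6 and 52.7 FPKM, and all 9 cell division genes were lower, with sums of 99.5 and 13.9 FPKM. Smooth muscle, pigment cell, leukocyte and nerve markers had medians between −0.75 and −0.30. The part of these cell types in the values of LTBP2, TGFB2 and TGFB3 was not tested, and disease and dissection cannot be told apart with 1 cat per condition.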

How the data were processed

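RNA from 1 normal and 1 affected cat was sequenced by the authors on an Illumina HiSeq. The deposited values are FPKM per locus, obtained by the authors from Cufflinks 2.1.1 with cummeRbund after alignment to felCat5 with TopHat2 2.0.9 and Ensembl gene predictions. Scaling between libraries and filters on loci are not given in the sources used here.

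Values were used as deposited. Log2 ratios used a pseudocount of 1 FPKM and understate differences of low genes. No test was made. The fragment scale was fitted at 2414 unnamed loci in the normal cat and 2221 in the affected cat, where 97.6% and 96.5% of the low values came out whole to within 0.03 (6% would by chance), with transcripts taken as 176 bases shorter than the locus. This step and the 2-fold counts were tested on simulated data. For the counts these held 4-fold changes and counting error only, scored at a mean of 5 FPKM or more. They held no variation between cats, so they do not bear on it.

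Members and gene lists were chosen with earlier results of these data known. All 6 members are named. From the lists, genes past 2-fold, the most abundant genes, integrin subunits, receptors and FBN1 were eligible to be named, and a few others are named as examples by role, chosen after their values were seen. Names were matched exactly, and symbols joined on 1 row were not matched. Some genes, among them DCN, FBN1, FBN2, LOX and TAGLN, stand in more than 1 list and are counted in each, so the lists are not independent. No protein sequences were used here, and a few genes that the counts include are not reported here by name. The software was Python 3.11.15, numpy 2.4.6, pandas 2.3.3, scipy 1.17.1 and matplotlib 3.10.9.

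The alternatives tried were no pseudocount or 0.1, 3 rescalings of the libraries, no minimum, a minimum mean of 5 FPKM, 4-fold in place of 2-fold, the sum of rows that share a name, and, added after the data were seen, removal of genes listed at 0 in 1 library from list medians and sums.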

Additional observations from a re-analysis of the deposited data

How the results depend on the processing

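Each of the 6 genes kept its sign and its side of the 2-fold line under the alternatives run. The log2 ratio of LTBP2 ranged from 1.63 to 1.71, that of TGFB2 from 1.16 to 1.23 and that of TGFB3 from −1.24 to −1.07. After each library was rescaled to sum to 1000000, LTBP3 went from 0.35 to 0.29 and TGFB2 from 1.21 to 1.16, both just under the lower counting bound of their fold (0.30 and 1.17 on the log2 scale). The 3 rescalings multiplied the affected values by 0.965 (equal sums), 0.998 (median ratio of loci) and 1.02 (7 reference genes) relative to the normal ones. Ratios between genes of 1 library do not depend on rescaling, and the sum of both TGFB2 rows moved none of them beyond counting error.

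All 24 percentiles recomputed with another minimum moved by 1 point or more, and that of TGFB3 in the affected cat ranged from 6.55 to 68.0. Loci higher by 2-fold or more and lower numbered 1358 and 1459. They became 2078 and 2261 (12.5% and 13.6% of loci) with no pseudocount, 815 and 691 over loci whose mean reached 5 FPKM, and 280 and 298 at 4-fold. The medians of the 19 lists kept their sign under 8 alternatives, of which the removal of genes listed at 0 was added later, except that rescaling on the reference genes sets the median of that list to 0 by construction. The median of the matrix anchors ranged from −1.25 with no pseudocount to −0.067 at a mean of 5 FPKM, that of the microfibril partners fell to 0.039 with no pseudocount, and that of leukocyte markers was −0.13 at a mean of 5 FPKM. Without CRYAA, listed at 0 in the affected cat, the affected lens sum was 1.41 times the normal one in place of 0.854 times, an alternative also added later. Medians of 8 lists moved by at least 0.1 with no pseudocount. Depth does not limit the 6 genes, but the missing replicates do. No paired analysis was possible because there is only a single library of each condition.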

Other observations

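Loci between the members that share a chromosome were also counted. Between LTBP2 and TGFB3 on chromosome B3 lie 41 further loci, of which 23 passed 1 FPKM. Of those, 3 were higher by 2-fold or more in the affected cat and 1 was lower by 2-fold or more, with a median log2 ratio of −0.21. LTBP2 at one end was higher and TGFB3 at the other end was lower. Between TGFB1 and LTBP4 on chromosome E2 lie 20 loci, of which 13 passed 1 FPKM, with 1 higher, 2 lower and a median of 0.045.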
